A study of Mus musculus with 4 samples.

Results

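Transcript levels of 7 genes that act on AID-induced DNA lesions or belong to the AID family, namely Ung, Neil1, Msh6, Exo1, Polh, Rev1 and Apobec3, were examined in mouse B-cell lymphoma cells. The genes were picked by name for their role, with earlier results of these data known, and all 7 were found among the 34866 genes of the expression table and among the 11339 genes kept for testing. The cells came from 2 λ-MYC Tom+/ki mice, each with 1 IgM+ Tom+ tumor (tumors #1 and #2), and B220+ IgM+ cells of each spleen were sorted into a Tom+ and a Tom- library, which gave 4 libraries. All 4 libraries shared the same genotype: the λ-MYC transgene, in which Igλ regulatory sequences drive a human MYC gene, 1 Cre allele expressed from the AID locus, and 1 Rosa26 allele that encodes the red fluorescent protein tdTomato after Cre recombination. Tom+ cells, or their ancestors, had therefore expressed the Cre allele at some time, whereas Tom- cells carried no such mark. The label records past expression and not current AID levels. The exact ages of the 2 mice are not given in the sources used here, which state a lower limit in weeks and that animals were killed once severely ill. Cells of a mouse without tumor were not analysed here, and Tom+ and Tom- cells were thus compared within the tumor-bearing spleen of each mouse.

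AID converts cytosine to uracil in the immunoglobulin genes of activated B cells, and the resulting U:G mismatch is the starting lesion of somatic hypermutation and class switch recombination. The uracil can be excised by the glycosylase UNG, which opens base excision repair, or the mismatch can be bound by a complex that contains MSH6, after which the exonuclease EXO1 removes a stretch of the strand. Gaps and abasic sites are then filled by error-prone translesion enzymes, among them polymerase η, encoded by Polh, and REV1, which inserts cytosine opposite abasic sites. NEIL1 is a glycosylase that removes oxidized bases, and APOBEC3 is a cytidine deaminase related to AID that restricts retroviruses.

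The region around the start site was taken from RefSeq (GRCm38.p6) for members whose values are compared below, from 250 bases upstream to 50 bases downstream of the start. RefSeq promoter entries were matched for 6 of the 7 genes (all but Exo1). The letters searched were the MYC-type E box CACGTG, a palindrome, and the E2F-type strings TTTGGCGC, TTTCCCGC and TTTCGCGC, on both strands. They were chosen because MYC is the transgene and because replication genes are among the comparisons below. Msh6 and Rev1 are shown because they held the only matches among the 6 genes, and Neil1 because both Tom+ libraries lay above both Tom- libraries. Capitals mark the matched letters, and Neil1 has none.
Msh6: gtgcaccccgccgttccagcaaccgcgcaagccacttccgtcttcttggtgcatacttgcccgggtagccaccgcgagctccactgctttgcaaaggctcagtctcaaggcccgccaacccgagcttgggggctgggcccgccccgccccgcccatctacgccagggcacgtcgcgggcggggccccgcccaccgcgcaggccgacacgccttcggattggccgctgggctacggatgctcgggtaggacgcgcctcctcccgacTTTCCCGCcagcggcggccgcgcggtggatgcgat
Rev1: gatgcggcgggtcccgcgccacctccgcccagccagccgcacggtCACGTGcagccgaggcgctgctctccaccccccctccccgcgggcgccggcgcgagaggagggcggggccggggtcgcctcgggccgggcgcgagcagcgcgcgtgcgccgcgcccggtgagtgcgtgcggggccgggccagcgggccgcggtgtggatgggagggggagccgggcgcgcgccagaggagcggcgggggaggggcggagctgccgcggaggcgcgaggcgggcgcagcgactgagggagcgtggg
Neil1: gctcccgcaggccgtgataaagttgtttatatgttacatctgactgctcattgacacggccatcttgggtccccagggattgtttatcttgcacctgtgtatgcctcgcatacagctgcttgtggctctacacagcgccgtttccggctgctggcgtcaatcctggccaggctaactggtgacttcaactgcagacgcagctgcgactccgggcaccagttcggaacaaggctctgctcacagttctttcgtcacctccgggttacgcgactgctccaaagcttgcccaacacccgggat

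The Msh6 window (chr17:87974800-87975099, + strand) held TTTCCCGC 15 bases downstream of the start, and any of the 3 E2F-type strings was found in 1.84% of 32851 promoters of the same length. The Rev1 window (chr1:38129617-38129916, - strand) held CACGTG 205 bases upstream of the start, letters found in 7.15% of all promoters. The Neil1 window (chr9:57148256-57148555, - strand), like those of Ung, Polh and Apobec3, held none of these letters. The 3 windows also differed in base composition, with 51 CpG dinucleotides for Rev1, 37 for Msh6 and 17 for Neil1, against a median of 7 over all promoters. A match describes the letters of a window and not a bound site.

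The identity of the sorted cells was checked with markers. All 7 B-cell markers were at or above 1 TPM (length-normalized transcript abundance) in each library, with a summed level of 1040 to 2881 TPM. Germinal-center markers summed to only 1.11 to 2.80 TPM, with 5 of 6 below 1 TPM in all libraries and Rgs13 listed at 0 throughout. T-cell markers summed to 1.17 to 8.27 TPM, NK-cell markers to 0.193 to 0.978, myeloid markers to 2.64 to 13.3, erythroid markers to 0.619 to 21.5, and plasma-cell markers to 129 to 341 TPM. The Tom+ library of tumor #2 stood apart in Jchain, a plasma-cell marker, with 209 TPM against 0.33 to 1.72 TPM in the other libraries, and in the share of immunoglobulin genes, with 9.76% of TPM against 5.35 to 6.28%. The other plasma-cell markers were mixed. In that library Mzb1 was lowest (80.6 against 94.8 to 145 TPM), and Sdc1 was at 0.43 TPM, against 1.95 and 1.78 TPM in tumor #1. Irf4 (29.4 against 14.6 to 19.5 TPM), Xbp1 (21.2 against 10.6 to 18.7 TPM) and Prdm1 (0.57 against 0.02 to 0.11 TPM) were highest there. Mitochondrial genes took 6.61 to 15.6% of the TPM of a library, and 10298 to 11357 genes reached 1 TPM. Since TPM values keep no depth, the number of reads behind each value is unknown, and a lower level may reflect fewer expressing cells or less RNA per cell, which cannot be told apart in bulk samples.

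The 7 genes covered a 20.6-fold range of mean TPM. Apobec3 was the most abundant, above 95.7% of the tested genes, with 245.5 (Tom-) and 237 TPM (Tom+) for tumor #1, against 263 and 233 TPM for tumor #2. Exo1 followed, above 86.7% of the tested genes, with 78.5 (Tom-) and 81.4 TPM (Tom+) for tumor #1, against 65.6 and 54.2 TPM for tumor #2. Msh6 was above 72.1% of tested genes, with 32.7 (Tom-) and 33.1 TPM (Tom+) for tumor #1, against 28.3 and 24.8 TPM for tumor #2. In each of the 4 libraries Apobec3 exceeded Exo1 and Exo1 exceeded Msh6, and the ranges of these 3 genes did not overlap.

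Among the remaining genes, the order was less clear. Rev1 was at 19.7 (Tom-) and 21.8 TPM (Tom+) for tumor #1, against 29.1 and 27.1 TPM for tumor #2, so that it exceeded Msh6 in 2 of 4 libraries and the ranges overlapped. Ung was at 23.9 (Tom-) and 25.4 TPM (Tom+) for tumor #1, against 17.9 and 17.4 TPM for tumor #2, and was above Rev1 in tumor #1 and below it in tumor #2. Polh was at 17.7 (Tom-) and 15.2 TPM (Tom+) for tumor #1, against 15.0 and 15.4 TPM for tumor #2, below Ung in all 4 libraries although their ranges overlapped. Neil1, the least abundant member, was at 11.3 (Tom-) and 13.6 TPM (Tom+) for tumor #1, against 8.61 and 14.1 TPM for tumor #2, below the range of Polh.

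**Figure D1:**
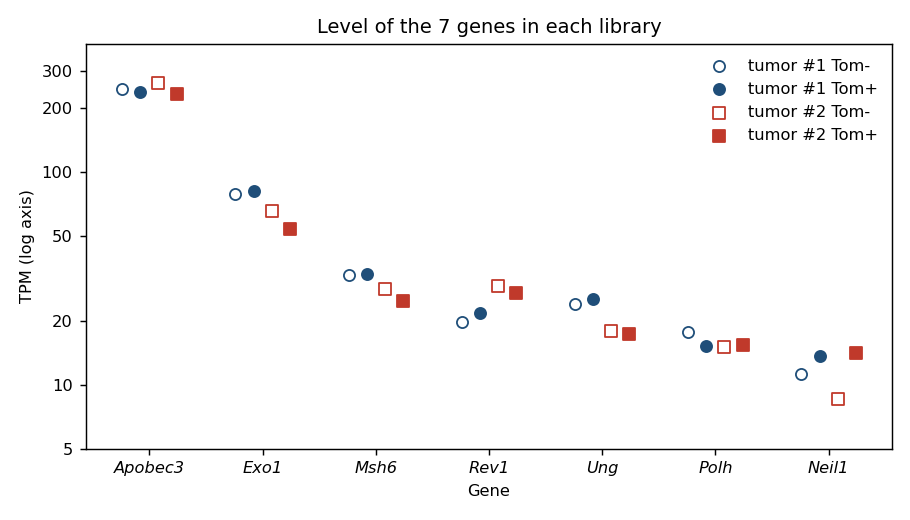
TPM (log axis) of the 7 genes in the 4 libraries, with 1 point per library for Tom- and Tom+ cells of tumors #1 and #2. Apobec3, Exo1 and Msh6 are separated from each other in every library, whereas Rev1 and Ung change places between the tumors.

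The spread between libraries was set beside that of other genes. The highest library exceeded the lowest by 1.13-fold for Apobec3, 1.18-fold for Polh, 1.33-fold for Msh6, 1.46-fold for Ung, 1.48-fold for Rev1, 1.5-fold for Exo1 and 1.63-fold for Neil1. The members' median ratio was 1.46, against 1.68 for the 5212 tested genes within the same range of mean TPM. Likewise, the median size of the difference between Tom+ and Tom- cells was 0.087 for the members and 0.156 for those genes on the log2(TPM + 1) scale.

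Whether cells with a history of AID expression differ in these genes was then asked by comparing Tom+ with Tom- cells within each tumor (limma's moderated test on log2(TPM + 1) with tumor as a block). No member passed an adjusted p of 0.05, and neither did any other of the 11339 genes (0.00%), while 530 genes (4.67%), or 140 without the tumor block, but no member had an unadjusted p below 0.05. With 2 tumors the test has 1 residual degree of freedom, so that a call missed here does not show equal levels. Tom+ cells lay above Tom- cells in both tumors for 21.6% of all tested genes and below them in both for 29.5%. Of the 7 members, Neil1 was higher in both tumors, Apobec3 was lower in both, and the other 5 went in opposite directions. The differences of tumor #1, given below for each gene, do not use the Tom+ library of tumor #2 that stood apart in Jchain and immunoglobulin genes. With immunoglobulin genes left out and the libraries rescaled, the log2 difference of tumor #2 was 0.03 for Ung, which was then higher in both tumors. It was 0.72 for Neil1, -0.11 for Apobec3, -0.12 for Msh6, -0.20 for Exo1, 0.09 for Polh and -0.04 for Rev1. The part of Jchain in the differences of tumor #2 was not tested.

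Neil1 had the largest difference. Its mean was 9.94 ± 1.88 TPM in Tom- cells and 13.8 ± 0.346 TPM in Tom+ cells (SD, n = 2 each), and both Tom+ libraries lay above both Tom- libraries, as they did for 6.42% of all tested genes. The difference was 0.25 in tumor #1 and 0.65 in tumor #2, with a fitted value of 0.45 on the log2(TPM + 1) scale (SE 0.21) and an adjusted p of 0.936, or 1.37-fold with a 95% interval of 0.878 to 2.13. The separation of the Neil1 libraries was lost when the libraries were rescaled by trimmed means.

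Apobec3 was the only member with both Tom+ libraries below both Tom- libraries, a pattern found for 9.86% of all tested genes. Its difference was -0.05 in tumor #1 and -0.17 in tumor #2, with a fitted value of -0.11 (SE 0.12), an adjusted p of 0.940 and a 95% interval of -0.48 to 0.26. The separation was lost with trimmed-mean scaling, with quantile normalization and without mitochondrial genes.

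The remaining 5 genes, which encode the enzymes of the AID-dependent repair routes, had fitted log2 fold changes between -0.11 and 0.02. The uracil glycosylase gene Ung had a log2 fold change of 0.02 (SE 0.16), with 0.09 in tumor #1 and -0.04 in tumor #2. In mismatch repair, Msh6 was at -0.08 (SE 0.16) and Exo1 at -0.11 (SE 0.16), with 0.02 and 0.05 in tumor #1 and -0.18 and -0.27 in tumor #2, respectively. Among the translesion enzymes, Rev1 was at 0.02 (SE 0.17) and Polh at -0.09 (SE 0.18), with 0.14 and -0.20 in tumor #1 and -0.10 and 0.03 in tumor #2. The 95% intervals of these 5 genes lay between -0.63, the lower bound of Polh, and 0.53, the upper bound of Rev1.

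**Figure D2:**
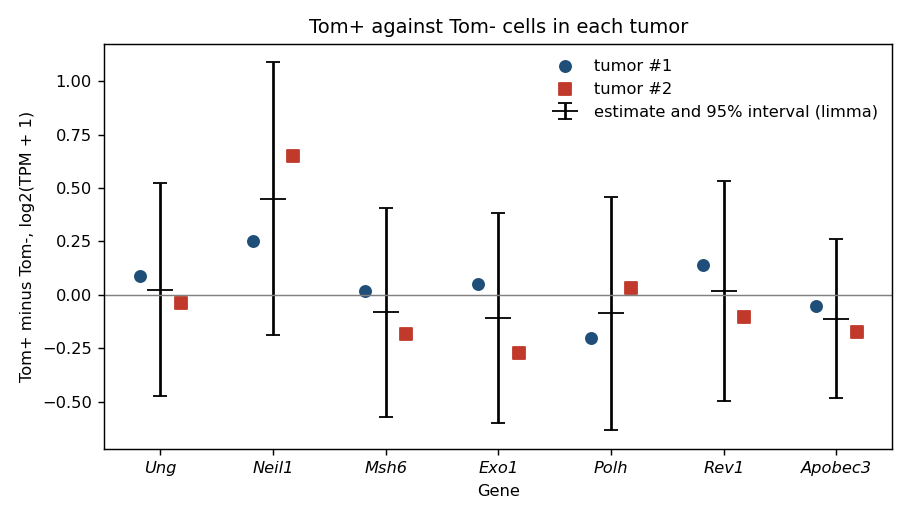
Difference between Tom+ and Tom- cells in log2(TPM + 1) for the 7 genes, with a point for each tumor and the fitted value with its 95% interval. Every interval includes 0, and only Neil1 and Apobec3 have both tumors on the same side.

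The tumors were compared next, in each cell fraction. Both libraries of tumor #2 lay below both of tumor #1 for Ung, Msh6 and Exo1, which was the case for 23.7% of all tested genes, and above them for Rev1, as for 44.8% of tested genes. The mean difference between tumor #2 and tumor #1 was -0.46 for Ung, -0.42 for Exo1 and -0.30 for Msh6 on the log2(TPM + 1) scale, and 0.42 for Rev1. Polh (-0.11), Neil1 (-0.15) and Apobec3 (0.04) had libraries of both tumors intermingled with the values as deposited. After trimmed-mean scaling the differences were -0.79 for Ung, -0.76 for Exo1, -0.63 for Msh6, -0.43 for Polh, -0.47 for Neil1 and -0.31 for Apobec3, with both libraries of tumor #2 below both of tumor #1 for these 6 genes, and 0.09 for Rev1, which was at -0.01 in Tom+ cells. Polh was separated in this direction also with quantile normalization and with protein-coding genes alone, whereas Apobec3 was separated in the other direction with quantile normalization (0.11) and without mitochondrial genes (0.16). No member differed by more than 1 on the log2 scale in both Tom+ and Tom- cells, compared with 14.9% of all tested genes. Each tumor is a single mouse, so that these differences carry no test. The share of mitochondrial genes (6.61 and 8.67% of TPM in tumor #1, 14.4 and 15.6% in tumor #2) and the summed B-cell markers (1120 and 1040 TPM in tumor #1, 2881 and 2296 TPM in tumor #2) also differed between the tumors. Pseudogenes took 31.3 and 30.3% of TPM in tumor #1 and 25.4 and 23.4% in tumor #2, and thus differed as well. Summed erythroid markers differed too, at 21.5 (Tom-) and 17.6 TPM (Tom+) for tumor #1 but 0.619 and 0.967 for tumor #2. Of these 6 genes, 3 were at 0 in all libraries, and Hbb-bs carried most of the tumor #1 sums (18.8 and 16.1 TPM). T-cell sums were 1.17 and 1.49 for tumor #1 but 8.27 and 5.95 for tumor #2. The 8.27 TPM of Tom- cells was mostly Cd3d (7.77), while Tom+ cells also held Cd8b1 (2.02) and Cd3g (1.35) beside Cd3d (2.09). Trac went the other way, at 0 in tumor #2 but 0.77 (Tom-) and 1.09 (Tom+) in tumor #1. Myeloid sums were 2.64 and 4.71 for tumor #1 but 13.3 and 7.04 for tumor #2. Sums that rest on few genes do not show a difference in cell types. The part of these shares and sums in the result was not tested.

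The tumor difference also has to be read against the scale of the libraries. The median over all tested genes was 0.20 in favor of tumor #2 with the values as deposited and -0.10 after trimmed-mean scaling. Relative to this median, Ung was at -0.71 to -0.57 over all scalings and filters tried, Exo1 at -0.65 to -0.45, Msh6 at -0.54 to -0.41 and Rev1 at 0.19 to 0.31. Neil1 (-0.40 to -0.26) and Polh (-0.34 to -0.21) also stayed below the median, while Apobec3 ranged from -0.20 to 0.19. Ung, Msh6 and Exo1 kept both tumor #2 libraries below those of tumor #1 under every scaling and gene set tried. The separation of Rev1 was lost with trimmed-mean scaling. Other settings (pseudocounts, filters and fits) cannot change the order of the libraries of a gene.

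**Figure D3:**
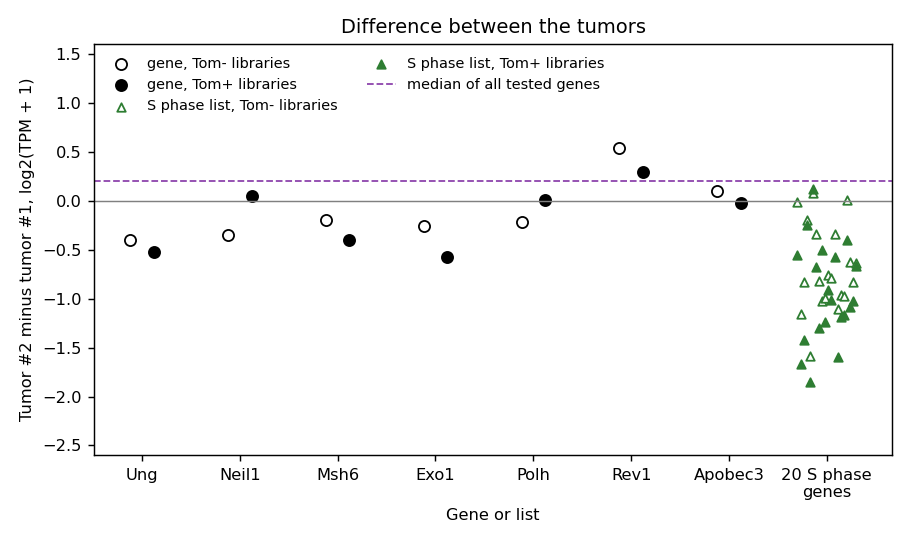
Difference between tumor #2 and tumor #1 in log2(TPM + 1), shown for Tom- (open) and Tom+ cells (filled) of each member (circles) and of the 20 S phase genes (triangles), with the median of all tested genes (0.20) as a dashed line. With the values as deposited, Ung, Msh6 and Exo1 lie below 0 in both fractions and Rev1 above 0 in both, although Rev1 is at -0.01 in Tom+ cells after trimmed-mean scaling.

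The genes with which the members share a pathway were examined next. The median log2 fold change between Tom+ and Tom- cells was 0.02 for base excision repair, -0.03 for mismatch repair and -0.02 for translesion genes, against -0.08 for the members and -0.03 for all tested genes. Without the tumor block, none of the list genes named below for an unadjusted p under 0.05 kept it. Of 22 base excision repair genes, 1 (4.55%, beside 4.67% of all tested genes) had an unadjusted p below 0.05. This was Aptx, which removes adenylate groups from broken DNA ends. The list held 6 genes higher and 6 lower in the Tom+ fraction of both tumors, against shares of 21.6% and 29.5% over all tested genes. Aptx was at 23.9 (Tom-) and 15.4 TPM (Tom+) for tumor #1, against 8.21 and 5.21 TPM for tumor #2, and its fitted value was -0.59 on the log2 scale (SE 0.18, adjusted p of 0.936). Mutyh, which removes adenine mispaired with 8-oxoguanine, had a log2 fold change of 0.46 but was at 9.23 (Tom-) and 17.6 TPM (Tom+) for tumor #1, against 10.7 and 11.1 TPM for tumor #2, so that the difference rested on tumor #1. Among the 11 glycosylases, Tdg had the highest median level (52.4 TPM), followed by Ung (20.9 TPM), Neil1 (12.4 TPM) and Neil3 (11.6 TPM), and the ranges of Neil1 and Neil3 overlapped. This division of the lists by role was made after the values were seen.

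Of 18 mismatch repair genes, Pold4, a small subunit of polymerase δ, was the only one with an unadjusted p below 0.05 (5.56%, beside 4.67% of all tested genes). It was at 11.6 (Tom-) and 7.70 TPM (Tom+) for tumor #1, against 24.3 and 11.9 TPM for tumor #2. In the Tom+ fraction of both tumors, 5 genes of the list were higher and 4 lower, beside 21.6% and 29.5% of all tested genes. The fitted value of Pold4 was -0.76 on the log2 scale (SE 0.21, adjusted p of 0.936). Between the tumors, 11 of the 18 genes were lower in both libraries of tumor #2, as were 11 of the 22 base excision repair genes and 23.7% of all tested genes. The median differences of the lists were -0.28 and -0.25, against 0.20 for all tested genes. Msh6, Exo1 and Ung were among these genes.

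Of the 16 translesion genes, 6 were higher and 2 lower in both libraries of tumor #2, beside 44.8% and 23.7% of all tested genes, with a median difference of 0.13, but of -0.18 after trimmed-mean scaling and -0.12 after quantile normalization. Primpol, which reprimes stalled forks, was the only gene of the list with an unadjusted p below 0.05 (6.25%, beside 4.67% of all tested genes). It was at 2.43 (Tom-) and 4.27 TPM (Tom+) for tumor #1, against 10.2 and 27.8 TPM for tumor #2, and its fitted value was 0.99 on the log2 scale (SE 0.28, adjusted p of 0.936). Of 8 translesion polymerases and related enzymes, Rev1 had the highest median level (24.4 TPM) and Polh the next (15.3 TPM). Rev3l, the catalytic subunit of polymerase ζ, followed at 10.2 TPM. Among the other genes of the list, Usp1 (54.8 TPM), Ube2b (52.2 TPM) and Ube2a (41.6 TPM) had medians above Rev1. Mad2l2 (22.2 TPM), Hltf (17.7 TPM), Wdr48 (16.8 TPM), Rad18 (16.4 TPM) and Shprh (10.2 TPM) had medians below it. Primpol thus varied far more between libraries than Rev1 or Polh.

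Genes of S phase and mitosis were included because several repair genes are expressed with replication. Of the 20, 17 (85.0%) were lower in both libraries of tumor #2, beside 23.7% of all tested genes, with a median difference of -0.88, against -0.46, -0.30 and -0.42 for Ung, Msh6 and Exo1. The mitotic cyclin Ccnb1 was at 79.4 (Tom-) and 71.4 TPM (Tom+) for tumor #1, against 25.8 and 19.0 TPM for tumor #2. Between Tom+ and Tom- cells, none of the 20 had an unadjusted p below 0.05, and the median log2 fold change was -0.07. In both tumors, 3 were higher and 8 lower in Tom+ cells, beside 21.6% and 29.5% of all tested genes. The part of the proliferation genes in the tumor difference of the members was not tested.

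**Figure D4:**
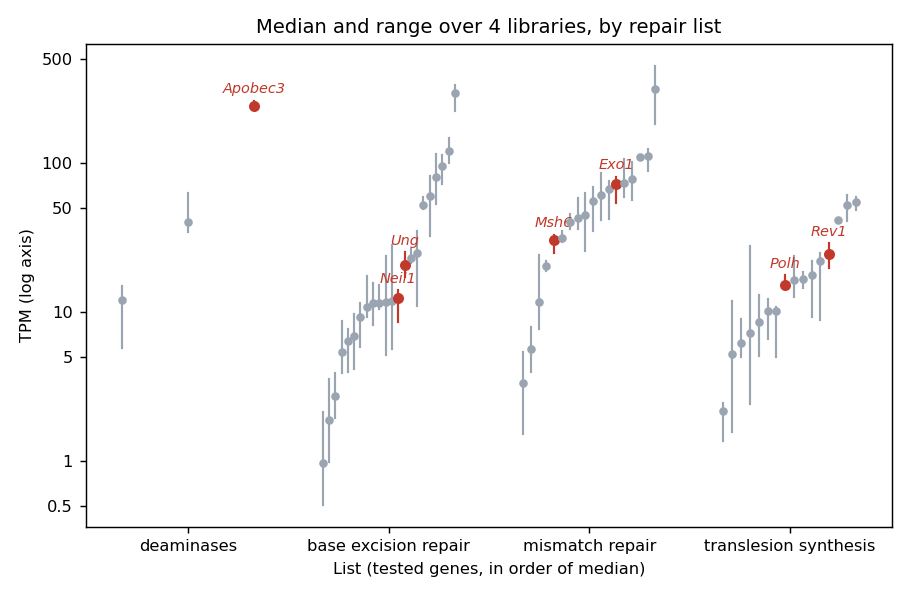
Levels (TPM, log axis) of the tested genes of the deaminase, base excision repair, mismatch repair and translesion lists in order of median, each as the median of the 4 libraries (point) with the lowest to highest library (line). Members are in red with their names, other genes in grey. Apobec3 has the highest median of the 3 tested deaminases, and the other members lie within the range of their lists, with genes such as Tdg (52.4 TPM) above Ung and Neil1 and Usp1 (54.8 TPM) above Rev1 and Polh.

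For each member, the protein-coding gene with the most similar pattern over the 4 libraries was identified as the one with the smallest root-mean-square log2 distance after centering. These were Txnl1 for Ung (distance 0.0082), Zfp808 for Neil1 (0.041), Psmb2 for Msh6 (0.0066), Abhd10 for Exo1 (0.0107), Zmiz2 for Polh (0.0080), Zfp275 for Rev1 (0.0129) and Mpi for Apobec3 (0.0124). The next in order were Sap30, Zfp574, Mrps2, Rps21, Cnot6, Rela and Taf8, respectively. With 4 libraries such patterns were not rare. Within a distance of 0.1 there were 33 genes for Neil1 and between 377 and 669 for each of the other members.

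Sequence shared between genes limits some of these values. Of the 31-base stretches in the GENCODE M21 transcripts of Rev1, 24.2% also occurred in another gene, mostly (23.8%) in Eif5b, a translation initiation factor gene on the opposite strand that overlaps Rev1 by 2794 bases. Eif5b was at 69.4 (Tom-) and 74.4 TPM (Tom+) for tumor #1, against 85.6 and 76.8 TPM for tumor #2, so it was also higher in both libraries of tumor #2, and its part in the Rev1 difference was not tested. For Apobec3 the shared portion was 12.1%, and for Msh6 10.8%, of which the processed pseudogene Gm11855 (listed at 0 in all 4 libraries) made up 9.29%. It was 2.28% or less for Ung, Neil1, Exo1 and Polh.

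The members lie at separate places of the GRCm38 genome. Ung spans chr5:114130386-114139323 (+ strand), Neil1 chr9:57142800-57148305 (-), Msh6 chr17:87975062-87990892 (+), Polh chr17:46171355-46202645 (-), Exo1 chr1:175880581-175913489 (+), Rev1 chr1:38052786-38129801 (-) and Apobec3 chr15:79891659-79915906 (+). Msh6 and Polh share chromosome 17 and Exo1 and Rev1 share chromosome 1, but neither pair lies close together.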

How the data were processed

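RNA of sorted splenic B220+ IgM+ Tom+ and Tom- cells from 2 λ-MYC Tom+/ki mice was sequenced as 60-base single reads after poly(A) selection. Reads were called with CASAVA 1.8 and trimmed with Cutadapt, and the authors quantified them with Salmon 1.9 on GRCm38 transcripts and deposited gene-level TPM values, from which read depth cannot be recovered. The strand setting and the step from transcripts to genes are not given in the sources used here. A count model, used in the study, could not be run on TPM.

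Gene IDs were matched to GENCODE M21 (34652 of 34866). Genes that reached a TPM of 1 in 2 or more libraries (11339) were transformed to log2(TPM + 1) and tested with limma 3.58.1 (R 4.3.3) with an intensity trend, tumor as a block and Benjamini-Hochberg adjustment. The block follows the mouse: both libraries of a number come from 1 mouse, and their deviations correlated across genes (Pearson r = 0.626, Spearman rho = 0.669). Each group holds 2 mice. The steps were tested on simulated data with far larger changes than those of the members. That test does not show whether changes of the members' size would be found. From each pathway list, genes with an unadjusted p below 0.05, the 2 with the largest Tom difference and the 1 with the largest tumor difference could be named, and for each member the 2 genes of most similar pattern; values of some genes picked this way are not reported here. The members and lists were chosen with earlier results of these data known. Other scalings, pseudocounts, filters, gene sets and fits were tried as alternatives.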

Additional observations from a re-analysis of the deposited data

Results flagged for a closer look

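For 5 of the 7 genes, Tom+ cells lay on opposite sides of Tom- cells in the 2 tumors with the values as deposited. The same held for 48.8% of all tested genes, so that opposite directions are common in these data. This difference between tumors was not tested because each tumor has 1 library per fraction. The Tom difference of tumor #1 minus that of tumor #2 was 0.13 for Ung, 0.20 for Msh6, 0.32 for Exo1 and 0.24 for Rev1, which were higher in Tom+ cells of tumor #1 and lower in those of tumor #2. It was -0.23 for Polh, which was lower in Tom+ cells of tumor #1 and slightly higher in those of tumor #2.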

How the results depend on the processing

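The log2 fold changes of the 7 genes between Tom+ and Tom- cells kept their direction under every alternative that used both tumors, and none was called. Filters and changes of block, variance trend or prior leave these fold changes as they are. Only scaling, gene set and pseudocount could alter them. With 1 tumor left out, which leaves a value with no test, 5 changed sign, Exo1 (0.05) and Msh6 (0.02) without tumor #2 and Polh (0.03), Rev1 (-0.10) and Ung (-0.04) without tumor #1. Without the replicate block, 140 genes instead of 530 had an unadjusted p below 0.05, and 0 instead of 5 of the pathway genes. With protein-coding genes alone, 4 instead of 2 members had the same direction in both tumors, Msh6 being added as lower and Ung as higher. The number was 3 with quantile normalization, which added Exo1 as lower, and 3 with immunoglobulin genes left out, which added Ung as higher. Of 63 values of the difference between tumors, 16 moved by more than the SD of that difference over Tom- and Tom+ cells (0.09 for Ung and 0.23 for Exo1). Most of these moved with trimmed-mean or quantile scaling, and the cause was not tested. Every member moved with trimmed-mean scaling. The filters could not change the tumor differences, and the pseudocounts moved none of them past that SD. The replicate block changed no other call. The limits are 2 mice, 1 residual degree of freedom, an unknown read depth and an unstated strand setting.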

Other observations

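Genes outside the members' own repair routes were described in the same way. Of 23 AID cofactor genes, Ptbp2, an RNA-binding protein gene, was the only one with an unadjusted p below 0.05 (4.35%, beside 4.67% of all tested genes). It was at 9.996 (Tom-) and 25.0 TPM (Tom+) for tumor #1, against 51.0 and 76.01 TPM for tumor #2. Its fitted value was 0.90 on the log2 scale (SE 0.24, limma adjusted p of 0.936). Of 24 end-joining genes tested, Rnf8, a ubiquitin ligase gene of the double-strand break response, was at 10.9 (Tom-) and 16.3 TPM (Tom+) for tumor #1, against 8.005 and 17.5 TPM for tumor #2, and its fitted value was 0.79 on the log2 scale (SE 0.22, limma adjusted p of 0.936).

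Of the 9 nucleotide pool genes, none had an unadjusted p below 0.05 and 5 were lower in both libraries of tumor #2, a pattern of 23.7% of all tested genes, with a median difference of -0.97. Nudt1, which hydrolyses oxidized purine nucleotides, was at 107 (Tom-) and 57.9 TPM (Tom+) for tumor #1, against 78.7 and 62.8 TPM for tumor #2. Of the 3 tested deaminase genes, Apobec2 was at 14.9 (Tom-) and 14.3 TPM (Tom+) for tumor #1, against 5.80 and 9.91 TPM for tumor #2, and Apobec1 at 36.0 (Tom-) and 44.1 TPM (Tom+) for tumor #1, against 63.3 and 34.8 TPM for tumor #2. Unlike Apobec3, both of them differed in direction between the tumors. Over the 7 lists together, 5 of 115 tested genes (4.35%) had an unadjusted p below 0.05, beside 4.67% of all tested genes.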
